A study of Mus musculus with 9 samples.

Results

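The cytosolic ribosomal protein genes were examined with Affymetrix gene arrays of hippocampal RNA from C57BL/6 mice (12 to 14 weeks old). Such an array reads each gene through 1 or more groups of probes called probe sets. Members were the genes whose symbol begins with Rpl (large subunit) or Rps (small subunit), without the Rps6k kinases and without symbols marked -ps as pseudogenes, and they came to 76 of 18820 genes measured, 47 Rpl and 29 Rps. The mean signal over all 9 arrays chose the probe set that stands for a gene, so probe sets were selected on measured values but not on a difference between groups. The gene set itself was put forward with earlier results of these arrays known, so its overall shift is given as a description with no test. In order, the groups were mice given Maresin 1, a macrophage-derived lipid mediator of the resolution of inflammation, ahead of an operation that fractured the tibia, mice with the same operation alone, and control mice, with 3 arrays in each. Hippocampi were collected 72 h after the operation. The sources used here state neither the dose nor the vehicle of Maresin 1, nor what the control mice underwent. Titles call the arrays of a group biological replicates.

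Ribosomes build every cytosolic protein. The small subunit reads the mRNA, and the large subunit joins amino acids and passes the growing chain through its exit tunnel. Most ribosomal proteins are normally present once per ribosome. In neurons ribosomes also work in dendrites, where local translation is tied to synaptic plasticity. Most mRNAs of these proteins begin with a run of pyrimidines, the terminal oligopyrimidine or TOP tract, through which the mTORC1 kinase governs their translation and their storage as a group.

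Levels below are log2 of the quantile-normalized signal plus 16, and a difference is the first group minus the second on that scale. Quantile normalization gives all arrays the same distribution of signals, so a difference is relative to the other genes of the array. Each gene was tested in one limma model over the 9 arrays, with Benjamini-Hochberg adjustment over all 18820 genes and a threshold of 0.05. Of the 76 members, 73 lay above the level exceeded by few olfactory receptor genes (5.86, the 95th percentile of 990 such genes), which served as a guide to background. The exceptions were Rpl3l, a muscle paralog, Rpl39l, a testis paralog, and Rps23rg1. Because one tissue piece mixes cell types, fewer cells of a type and less RNA per cell cannot be told apart.

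RefSeq promoters were found for 62 of the 76 members. In 29 of these 62 genes, 46.8%, a run of at least 7 pyrimidines (C or T, with at least 1 C) on the sense strand touched the 11 bases around an annotated start, against 16.2% of the 14739 measured genes with a promoter. The share was 48.6% for the large and 44.0% for the small subunit, and run length spanned 7 to 21 bases with a median of 10. Of the 29 runs, 24 held the first transcribed base or the base before or after it. Searched on both strands over the 300 bases of each promoter, the ETS-like word CCGGAAG was present in 41.9% of member genes and 13.7% of all, and AAGATGGC, the core of a YY1 motif, in 9.68% and 3.83%. Of the 74 member promoters, 14 held the run and CCGGAAG, 4 held the run and AAGATGGC, and 0 held both words. The sequences of 4 starts with a run and 1 without are shown, since they belong to genes described below. The run shown for Rps27l ends before the first transcribed base, and presence of a run depends on the annotated start and the minimum of 7 bases. Each gives 30 bases either side of the first transcribed base, 5′ to 3′ on the gene's strand, in RefSeq GRCm38.p6 coordinates, with the pyrimidine run in capitals.
Rps6, chr4:86857337-86857397, minus strand: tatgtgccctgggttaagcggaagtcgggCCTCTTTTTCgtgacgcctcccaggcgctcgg
Rpl15, chr14:18270956-18271016, minus strand: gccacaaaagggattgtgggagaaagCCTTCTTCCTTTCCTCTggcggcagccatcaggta
Rpl35a, chr16:33056452-33056512, plus strand, 1 of 3 annotated starts: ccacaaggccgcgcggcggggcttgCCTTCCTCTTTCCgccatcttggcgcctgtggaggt
Rps27l, chr9:66946056-66946116, plus strand, 1 of 2 annotated starts: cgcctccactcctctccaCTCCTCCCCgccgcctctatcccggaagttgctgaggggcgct
Rps13, chr7:116334160-116334220, minus strand, no run: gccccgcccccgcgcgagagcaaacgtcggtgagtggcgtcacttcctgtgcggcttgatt
The 29 member genes with a run and the 33 without had median differences of 0.083 and 0.076 between Maresin 1 with surgery and surgery, and of 0.075 and 0.10 between Maresin 1 with surgery and control. Whether the run goes with the size of the difference was not tested.

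Large and small subunit genes deviated alike on average within an array, while single members moved together in some arrays only. After quantile normalization, 72 of 76 members lay above their own 9-array mean in Maresin 1 replicate 1. In surgery replicate 3 and control replicates 1 and 2 these were 9, 12 and 19 members, and in the other arrays 43 to 58. As a score, the deviation of each gene from its 9-array mean was averaged over the genes of a subunit. The large subunit scored 0.092, 0.038 and 0.027 in the Maresin 1 arrays, 0.015, 0.025 and -0.11 in the surgery arrays, and -0.050, -0.045 and 0.012 in the control arrays. The small subunit scored 0.11, 0.034 and 0.032 in the Maresin 1 arrays, 0.0083, 0.042 and -0.13 in the surgery arrays, and -0.057, -0.059 and 0.020 in the control arrays. Surgery replicate 3 was thus the lowest array and Maresin 1 replicate 1 the highest for both subunits, as also with cyclic loess. With median scaling control replicate 2 was lowest (-0.29 and -0.32) and surgery replicate 2 highest (0.17 and 0.19). Without normalization surgery replicate 1 was lowest and control replicate 1 highest, which were also the arrays of lowest and highest deposited median (54.1 and 100). Relative to the median of all genes, the unnormalized member score was lowest in control replicate 2 (-0.15) and highest in surgery replicate 2 (0.12). The score of large minus small averaged -0.0048 ± 0.0089 with Maresin 1 and surgery, 0.00073 ± 0.016 with surgery and 0.0041 ± 0.011 in control (SD, n = 3), so the subunits differed by less than the spread between replicates in every group. After quantile normalization, for 39 of the 76 members, 26 large and 13 small, surgery replicate 3 had the lowest of the 9 levels, and for 37 Maresin 1 replicate 1 had the highest. Replicates of a group differed by a median SD of 0.080 over the members and 0.11 over all genes. Over genes above the background guide this SD was 0.096.

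**Figure D1:**
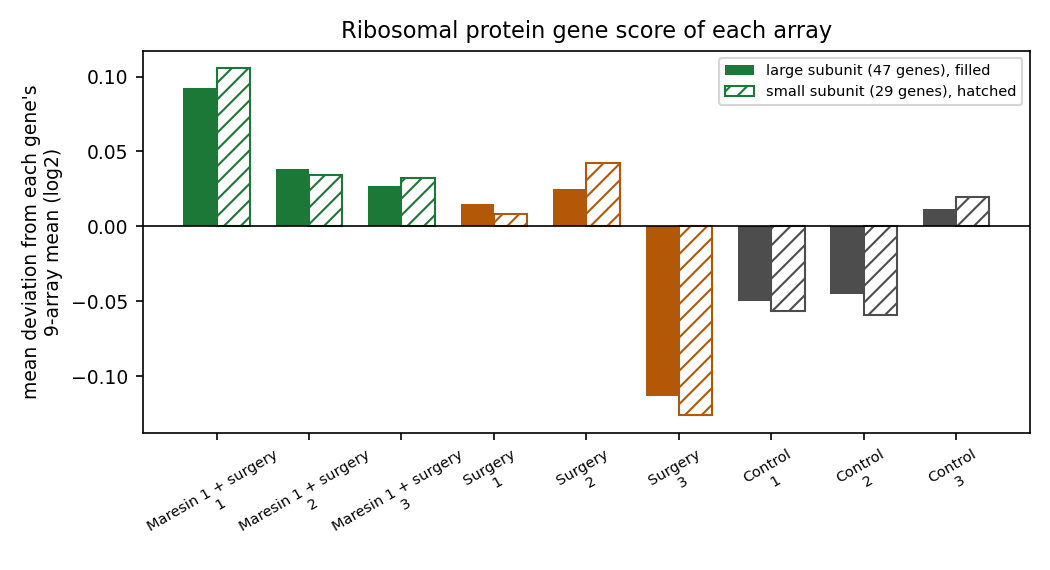
Mean deviation of large (filled) and small (hatched) subunit genes from each gene's 9-array mean, on the log2 scale after quantile normalization, for the 3 arrays of Maresin 1 with surgery, surgery and control. Filled and hatched bars of an array are alike in sign and size, with surgery replicate 3 lowest at -0.11 and -0.13 and Maresin 1 replicate 1 highest at 0.092 and 0.11, an order that differs under median scaling and without normalization.

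Between Maresin 1 with surgery and surgery, the members' median difference was 0.082 (large 0.081, small 0.097), against -0.019 over all genes, but with each array scaled to one median in place of quantile normalization it was -0.079, against -0.089 over all genes. Relative to all genes the median difference was thus 0.10 after quantile normalization and 0.0096 after median scaling. Values of single genes under median scaling, given below, are likewise best read against the -0.089 of all genes. Under quantile normalization 64 of 76 members had a difference above 0, against 41.7% of all genes. Under median scaling 10 of 76 members did, with the median of all genes also below 0. The test called 0 of 76 members, against 0% of all genes, with a lowest adjusted p of 0.859. At an unadjusted p under 0.05, 13 members were higher and 0 lower, where 1.96% of all genes were higher and 3.70% lower. Under that p stood 1 member with median scaling and 0 without normalization between arrays. The shares of all genes in these settings were not counted. The groups did not overlap for 16 members, all higher with Maresin 1 and surgery, where 4.79% of all genes were higher and 8.20% lower without overlap. Without surgery replicate 3 the median difference was 0.032 over the members and -0.021 over all genes. In that setting 50 members were above 0 and 6 were under an unadjusted p of 0.05, with no share of all genes counted. The size of the members' median thus depends on that array.

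The small subunit genes Rps27l, Rps19 and Rps13 were higher with Maresin 1 and surgery than with surgery, under quantile normalization and under median scaling, without passing the test. Rps27l, a p53-inducible paralog of Rps27, stood at 8.19, 8.26 and 8.15 with Maresin 1 and surgery, at 7.85, 7.91 and 7.78 with surgery, and at 7.71, 7.91 and 7.94 in control. Every Maresin 1 array was above every other array, with a difference from surgery of 0.36 ± 0.08 (SE, n = 3), a fold of 1.28, adjusted p = 0.859, and of 0.27 under median scaling. Its parent gene Rps27 differed by 0.10 ± 0.08, or by -0.026 under median scaling. Rps19, a protein of the small subunit head that is mutated in Diamond-Blackfan anaemia, stood at 9.77, 9.76 and 9.75 with Maresin 1 and surgery, at 9.55, 9.57 and 9.38 with surgery, and at 9.39, 9.49 and 9.70 in control. Its difference from surgery was 0.26 ± 0.08, and 0.11 under median scaling. Rps13, which sits at the subunit interface, stood at 9.64, 9.60 and 9.50 with Maresin 1 and surgery, at 9.33, 9.43 and 9.37 with surgery, and at 9.38, 9.24 and 9.33 in control. The difference from surgery was 0.20 ± 0.06, and 0.059 under median scaling. No Maresin 1 array overlapped with surgery or control for these 3 genes.

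Rps6, the substrate of the S6 kinases and a readout of mTORC1 signalling at the protein level, varied little: it stood at 12.12, 12.11 and 12.05 with Maresin 1 and surgery, at 12.00, 12.01 and 12.02 with surgery, and at 12.00, 12.03 and 12.00 in control. The difference from surgery of 0.08 ± 0.03 became -0.13 under median scaling. Other small subunit head genes had differences from surgery of 0.18 (Rps12), 0.16 (Rps18), 0.11 (Rps25), 0.097 (Rps20) and 0.059 (Rps15), while Rps10 and Rps29 had -0.0059 and -0.045, and of these 7 genes only Rps12 was above 0 under median scaling, at 0.037. At the mRNA entry and exit sites the differences were 0.16 for Rps3, 0.034 for Rps2, 0.021 for Rps26 and -0.040 for Rps28, and under median scaling they were -0.0067, -0.18, -0.16 and -0.21 in the same order. Rpsa, also known as the laminin receptor, differed by -0.0041 in its chosen probe set and by 0.047 to 0.079 in its other 4. The small subunit was therefore not uniform, with 22 of 29 genes above 0 after quantile normalization.

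Among large subunit genes, Rpl35a, another Diamond-Blackfan anaemia gene, stood at 9.76, 9.80 and 9.73 with Maresin 1 and surgery, at 9.57, 9.67 and 9.44 with surgery, and at 9.46, 9.36 and 9.51 in control. Its difference from surgery was 0.21 ± 0.07, and 0.053 under median scaling. Rpl32l, which shares a probe set with Rpl32, differed by 0.25 ± 0.08, and by 0.088 under median scaling. Rpl5, which binds the 5S rRNA and with Rpl11 restrains the p53 inhibitor Mdm2, stood at 10.83, 10.86 and 10.84 with Maresin 1 and surgery, at 10.70, 10.79 and 10.64 with surgery, and at 10.68, 10.65 and 10.74 in control. Maresin 1 arrays again lay above all others, with a difference from surgery of 0.14 ± 0.05 that became -0.039 under median scaling. Rpl11 differed by 0.13 ± 0.09, or by -0.042 under median scaling, and surgery replicate 3, at 10.22, lay below the range of 10.44 to 10.65 of the other arrays.

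The stalk, which recruits and activates elongation factors, had differences from surgery of 0.12 for Rpl12, 0.12 for Rplp2, 0.066 for Rplp0 and 0.044 for Rplp1, and under median scaling all 4 were below 0, at -0.061, -0.0078, -0.11 and -0.17. The other 2 probe sets of Rplp1 differed by -0.057 and -0.12 after quantile normalization. Around the exit tunnel the differences were 0.16 (Rpl26), 0.13 (Rpl17), 0.11 (Rpl31), 0.081 (Rpl35), 0.046 (Rpl23a), 0.031 (Rpl39), 0.027 (Rpl4) and -0.013 (Rpl19). Under median scaling all of these tunnel genes but Rpl26, at 0.0044, were below 0. Of the paralogs, Rpl7l1 differed by 0.071 and its partner Rpl7 by 0.10. The testis paralog Rpl10l differed by 0.079 and its partner Rpl10 by 0.11, and all 4 of these genes were below 0 under median scaling.

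**Figure D2:**
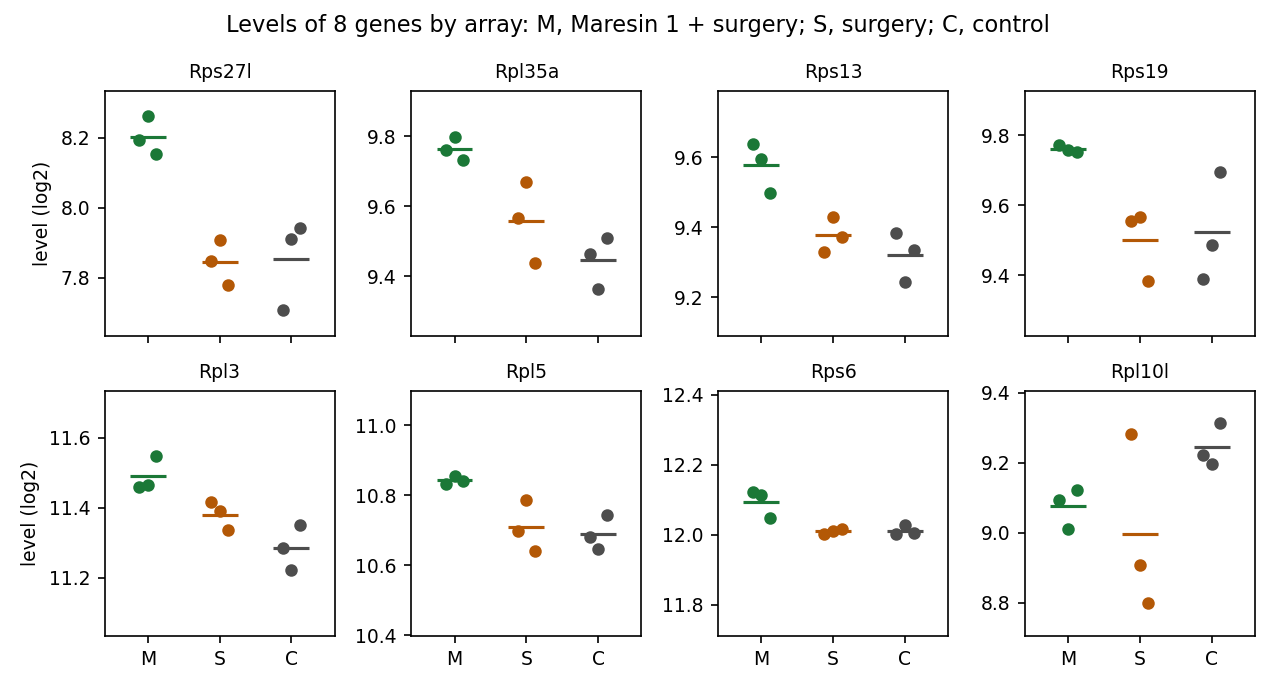
Levels (log2, after quantile normalization) of 8 genes in each array of Maresin 1 with surgery (M), surgery (S) and control (C), with lines at group means and the same vertical span in every panel. All genes but Rpl10l have their 3 Maresin 1 arrays above the other 6, although the differences of Rpl5, Rpl3, Rps6 and Rpl10l from surgery turn negative when each array is scaled to one median. In that setting the median of all genes is -0.089. Rps27l, Rpl35a, Rps13 and Rps19 were named by a rule that asks for groups without overlap, so their separation was selected. Among all 76 members, 16 were higher than surgery and 27 higher than control without overlap, where 4.79% and 7.61% of all genes were.

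Between surgery and control, which shares its surgery arrays with the comparison above, the members' median difference was -0.0023 (large -0.0027, small -0.0018), against 0.019 over all genes, and under median scaling it was 0.15, against 0.10 over all genes. Relative to all genes the difference was -0.022 after quantile normalization and 0.049 after median scaling. The difference was above 0 in 36 of 76 members, against 58.4% of all genes. Under median scaling it was above 0 in 74 of 76, where the median of all genes was 0.10. limma called 0 members, against 0% of all genes, with a lowest adjusted p of 0.772. At an unadjusted p under 0.05, 0 members were higher and 1 lower, where 3.90% of all genes were higher and 2.31% lower. The surgery and control arrays did not overlap for 3 members, all higher with surgery, where 7.71% of all genes were higher and 3.82% lower. Without surgery replicate 3 the members' median was 0.053 and 61 of 76 were above 0, with a median of 0.021 over all genes.

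The gene under an unadjusted p of 0.05 was Rpl10l, which stood at 9.09, 9.01 and 9.12 with Maresin 1 and surgery, at 9.28, 8.91 and 8.80 with surgery, and at 9.22, 9.20 and 9.31 in control. Surgery replicate 1 lay within the control range, so the groups overlapped, and the difference was -0.25 ± 0.10, adjusted p = 0.772, or -0.089 under median scaling. As the only such member, Rpl10l made up 1.32% of members, against 2.31% of all genes lower at an unadjusted p under 0.05. The 3 members without overlap made up 3.95%, against 7.71% of all genes higher, and were no core ribosomal proteins. They were Rpl7l1 with a difference of 0.085 ± 0.04, Rps19bp1, which encodes a binding partner of Rps19 and of the deacetylase Sirt1, with 0.075 ± 0.06, and Rps23rg1, below the background guide, with 0.24 ± 0.11. Rps27l, Rps19 and Rps6 differed by -0.0084, -0.023 and -0.0018, and by 0.10, 0.15 and 0.14 under median scaling. Rpl35a differed by 0.11 ± 0.07 and Rpl3, a protein near the peptidyl transferase centre, by 0.095 ± 0.05, both with overlapping groups.

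Between Maresin 1 with surgery and control, which shares arrays with both other comparisons, the members' median difference was 0.082 (large 0.075, small 0.085), against -0.0032 over all genes. It stayed above 0 under every scaling tried, at 0.070 with cyclic loess, 0.068 with median scaling and 0.032 without normalization between arrays. In this comparison 66 of 76 members were above 0, against 49.0% of all genes. The test called 0 members, against 0.0850% of all genes (16 genes), and the lowest adjusted p of a member was 0.0911, of Rpl35a. At an unadjusted p under 0.05, 21 members were higher and 0 lower, where 5.87% of all genes were higher and 5.61% lower. Under that p stood 12 members without Maresin 1 replicate 1, 2 with median scaling and 0 without normalization between arrays. Shares of all genes in these settings were not counted. The arrays of the groups did not overlap for 27 members that were higher and 2 that were lower, where 7.61% and 6.71% of all genes were so.

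Rpl35a had the widest gap of the large subunit, with a difference from control of 0.32 ± 0.07, a fold of 1.25. Rps27l differed from control by 0.35 ± 0.08 (adjusted p = 0.125), Rps13 by 0.26 ± 0.06 (adjusted p = 0.130) and Rps19 by 0.24 ± 0.08 (adjusted p = 0.249). Rpl3 stood at 11.46, 11.46 and 11.55 with Maresin 1 and surgery, at 11.42, 11.39 and 11.34 with surgery, and at 11.28, 11.22 and 11.35 in control. Its difference from control was 0.21 ± 0.05, adjusted p = 0.111. Rpl26, Rplp2, Rps3, Rps25 and Rpl7 had differences from control of 0.23, 0.19, 0.20, 0.18 and 0.18 and Rpl5 had 0.15. The 2 lower genes without overlap were Rpl10l, at -0.17 ± 0.10, and Rpl28, at -0.076 ± 0.04, which stood at 11.48, 11.42 and 11.46 with Maresin 1 and surgery against 11.49, 11.58 and 11.51 in control. Rps28, Rps29 and Rps10 were also below 0, at -0.083, -0.076 and -0.051.

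**Figure D3:**
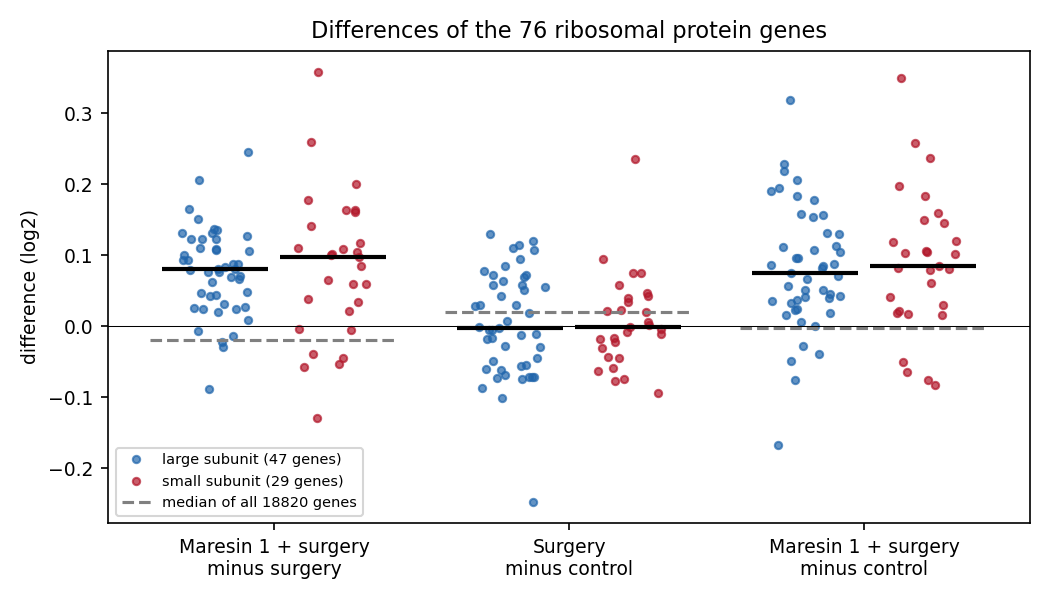
Difference (log2, after quantile normalization) of each large subunit gene (blue) and small subunit gene (red) in the 3 comparisons, with black lines at subunit medians and dashed grey lines at the median of all 18820 genes. Subunit medians are 0.081 and 0.097, -0.0027 and -0.0018, and 0.075 and 0.085, but under scaling to one median those of the first comparison are -0.077 and -0.081 and those of the second are 0.14 and 0.15.

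Deposited medians ranged from 54.1 to 100 between arrays. Median scaling moved the median of all genes to -0.089 between Maresin 1 with surgery and surgery and to 0.10 between surgery and control. Values under it, such as a gene below 0, are best read relative to those shifts. Large and small subunit medians moved together under each scaling, at -0.077 and -0.081 for Maresin 1 with surgery minus surgery, at 0.14 and 0.15 for surgery minus control, and at 0.066 and 0.077 for Maresin 1 with surgery minus control under median scaling.

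**Figure D4:**
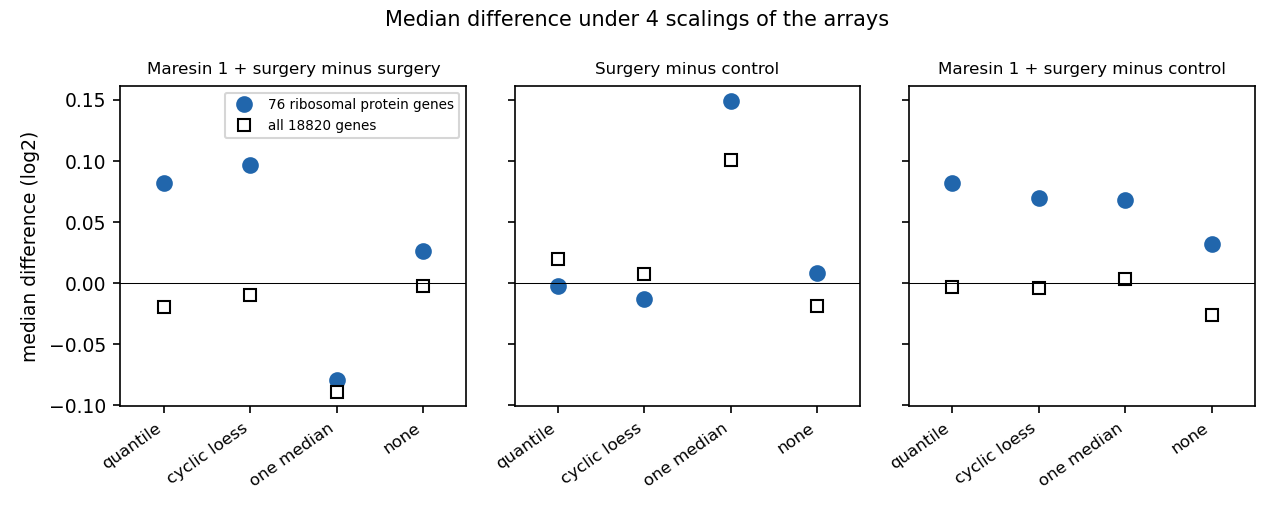
Median difference (log2) of the 76 members (blue) and of all 18820 genes (open squares) under quantile normalization, cyclic loess, scaling to one median and no normalization between arrays. The members' median for Maresin 1 with surgery minus surgery is 0.082, 0.097, -0.079 and 0.026 in that order, and for Maresin 1 with surgery minus control it is 0.082, 0.070, 0.068 and 0.032.

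Many members are read by several probe sets, 387 in all, with 56 genes having more than 1 and 41 for Rpl21 alone. These genes have many near-identical processed copies in the mouse genome, so a probe set can read transcripts of more than one locus, and 17 probe sets of 6 genes held the same 9 values as another of their gene. Probe sets of a gene are therefore no independent measurements. All probe sets of a gene had the same sign in 44 of 56 genes for Maresin 1 with surgery minus surgery, 38 for surgery minus control and 47 for Maresin 1 with surgery minus control. Between Maresin 1 with surgery and control, the 8 probe sets of Rpl15, a large subunit core protein, differed by 0.17 to 0.19, the 6 of Rpl3 by 0.20 to 0.27 and the 17 of Rpl17 by 0.10 to 0.22. The 41 of Rpl21, another large subunit gene, lay between -0.079 and -0.0058, and the 24 of Rpl29 between -0.015 and 0.063. Rpl15, Rpl21 and Rpl29 were picked after their values were seen. Rpl35a, Rps27l, Rps19, Rpl32l and Rpl10l each had only 1 probe set of their own. The 11 probe sets named for Rpl35a together with Ino80 differed by 0.23 to 0.31 from control and by 0.14 to 0.19 from surgery. The 3 probe sets shared by Rps19 and Rps19-ps3 differed by 0.27 to 0.29 from control. Some of the probe sets shared with Ino80 had equal levels and differences, as did some shared with Rps19-ps3. Such probe sets are no separate readings. For the genes reached only through shared probe sets, differences from control were 0.13 for Rpl32, 0.072 and 0.073 for Rpl36al, 0.12 and 0.18 for Rpl22l1, at most 0.040 for Rpl37a and at most 0.022 for Rps16.

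**Figure D5:**
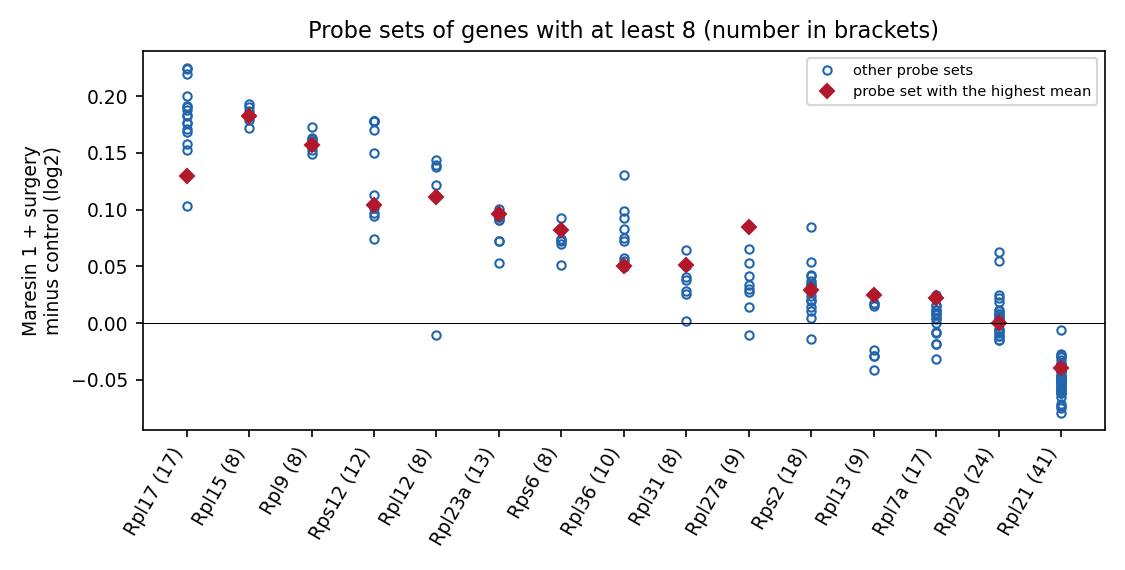
Difference between Maresin 1 with surgery and control (log2, after quantile normalization) for every probe set of the genes with at least 8, with the probe set of highest mean as a red diamond. Probe sets of Rpl15 lie at 0.17 to 0.19 and those of Rpl21 at -0.079 to -0.0058, while those of Rpl12 span -0.011 to 0.14 and those of Rps2 -0.014 to 0.085.

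Other genes of the translation machinery were set beside the members. The 74 mitochondrial ribosomal protein genes had a median difference of 0.0062 between Maresin 1 with surgery and surgery and 0.018 between Maresin 1 with surgery and control, against 0.082 for the cytosolic members in both. Initiation factors (43 genes) had 0.011 and 0.028, elongation and release factors (13 genes) 0.010 and 0.035, ribosome assembly genes (60 of 65 measured) -0.00035 and 0.016, and 17 of 20 other mRNAs known to carry a TOP tract 0.036 and 0.048. limma called 0 genes of these lists in any comparison. At an unadjusted p under 0.05 between Maresin 1 with surgery and control, 8 mitochondrial ribosomal protein genes were higher and 4 lower, 7 initiation factors higher and 1 lower, 4 assembly genes higher and 0 lower, and 3 of the other TOP mRNAs higher and 1 lower, where 5.87% of all genes were higher and 5.61% lower. Regulators of TOP mRNAs and the S6 kinases (16 of 20 measured) had medians of -0.039 and -0.062. At an unadjusted p under 0.05, 0 of these regulators were higher and 4 lower between Maresin 1 with surgery and control, among them Eif4ebp2, the main 4E-BP of brain, with a difference of -0.24 and an adjusted p of 0.172. Eif4ebp2 is outside the naming rule and was picked from these 4 after the values were seen. Differences between lists were not tested. Medians of the lists were taken after quantile normalization only. There the members' median relative to all genes was 0.10 against surgery and 0.085 against control. Under median scaling, where the other lists were not computed, it was 0.0096 and 0.065.

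As to the labelled tissue, all 5 dentate granule, 5 pyramidal and 6 general neuronal markers lay above the background guide, as did 13363 of all 18820 genes and all measured markers of astrocytes (5), oligodendrocytes (3), microglia (5) and endothelium (5). Between Maresin 1 with surgery and surgery the dentate granule markers had a median difference of 0.24, with 5 of 5 above 0 and array scores of 0.059, 0.23 and 0.14 against -0.090, -0.048 and -0.062, and the pyramidal markers had -0.13, with 0 of 5 above 0 and scores of -0.013, -0.20 and -0.064 against 0.027, -0.0052 and 0.12. The part of cell composition in the members' shift was not tested. Markers of choroid plexus epithelium, a ventricular tissue beside the hippocampus, scored 2.63 and 2.96 in control replicates 2 and 3, against -0.94 in control replicate 1 and -0.93 to -0.64 in the operated mice, with 0 of 12 above 0 between surgery and control. Against control replicate 1 alone, the members' median difference was 0.10 for Maresin 1 with surgery, with 64 of 76 above 0, and 0.032 for surgery, with 51 of 76 above 0. The medians of all genes in that setting were 0.016 and 0.034. The 5 endothelial markers had a median of 0.39 between Maresin 1 with surgery and control, with all 5 above 0 and scores of 0.32, -0.14 and 0.16 against -0.23, -0.22 and -0.31. Between surgery and control these markers had a median of 0.36, also with all 5 above 0, and between Maresin 1 with surgery and surgery one of -0.0026. Their part in the members' shift was not tested.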

How the data were processed

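Total RNA of 9 hippocampi was labelled from 6 µg each, per the labels' protocols. The deposited table holds one linear intensity per probe set and array, which the authors produced, per the submitters' processing notes, in Affymetrix Expression Console. The version of that program and its algorithm were not given in the sources used here. Array medians differed (54.1 to 100) and 92 to 244 probe sets per array were at 0. Intensities of 21218 one-gene probe sets were quantile normalized over all 35556 probe sets, 16 was added and log2 taken, and the probe set of highest mean stood for each gene. limma 3.58.1 in R 4.3.3 (trend, not robust, no covariate, two-sided) compared the groups over 9 arrays, with Benjamini-Hochberg adjustment over 18820 genes. The limma step was also run on simulated log2 levels with independent noise. Normalization was not part of that simulation, so it does not bear on the choice of scaling. Arrays have no read depth, and 3 per group limits the precision. Of the table's per-sample columns 0 were left unused. Slide and scan are not known here and could not be tested as batches. Groups came from the titles. Symbols came from the platform's probe table, which can be old.

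Genes named are the 4 members with the largest positive and the 4 with the largest negative difference among those whose groups do not overlap, members fixed by role, and the ends of stated ranges; others are marked. Members and lists were chosen with earlier results of these data known. Alternatives were other scalings, constants 1 and 64, the mean of all probe sets, a filter on dim genes, no variance trend, only the groups compared, a replicate block, each replicate left out, control replicate 1 alone, and members without 9 paralogs or other non-core symbols, which was chosen after seeing the data.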

Additional observations from a re-analysis of the deposited data

How the results depend on the processing

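No member was called under any alternative: 0 of 76 in each of the 3 comparisons by limma, with lowest adjusted p over the named members' alternatives of 0.359 (Maresin 1 with surgery minus surgery), 0.251 (surgery minus control) and 0.0538 (Maresin 1 with surgery minus control). The members' median moved most with each array scaled to one median, to -0.079 for Maresin 1 with surgery minus surgery and 0.15 for surgery minus control. In that setting Rpl12 (-0.061), Rpl5 (-0.039), Rpl17 (-0.046), Rps6 (-0.13), Rpl3 (-0.068) and Rpl10 (-0.073), all under an unadjusted p of 0.05 in the reported values, changed sign against surgery. The median of all genes there was -0.089, so Rps6 lay below it and the other genes listed lay above it. Without normalization Rps6 reversed against surgery (-0.021) and control (-0.019), and Rpl39 against control (-0.0071). The median over large minus that over small subunit genes, -0.017 for Maresin 1 with surgery minus surgery, was 0.0037 with median scaling, 0.0039 without normalization, -0.000642 with cyclic loess, 0.0026 with the mean of all probe sets, and -0.020 to 0.015 with each replicate left out. For Maresin 1 with surgery minus control it was 0.0040 against control replicate 1 alone and -0.022 to -0.0037 with each replicate left out. The cause of these moves was not tested.

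With a replicate block the members' medians stayed at 0.082, -0.0023 and 0.082, and 0 members were called. Under an unadjusted p of 0.05 were 11, 1 and 17 members, with no share of all genes counted. Same-numbered arrays correlated at -0.24 to 0.055 in their deviations from the group mean, which gave no sign of pairing by number. Arrays of unlike number were not compared in this way, so these values do not decide whether the numbers pair the arrays. Over all 18820 genes, calls between Maresin 1 with surgery and control numbered 16, but 244 without control replicate 1, 38 with median scaling, 43 without normalization 4 against control replicate 1 alone, 15 without control replicate 3, and 0 without control replicate 2, without each Maresin 1 replicate in turn, with the replicate block, without the variance trend or with the 2 groups alone. Between surgery and control they numbered 0, but 167 without control replicate 1, 37 with median scaling and 42 without normalization. Background correction could not be varied from the deposited values, and 3 arrays per group limit what could be detected.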
